A study of Mus musculus with 3 samples.

Results

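The replication-dependent histone genes are the clustered genes that supply a dividing cell with histones H1, H2A, H2B, H3 and H4. They were taken as all array probes, controls aside, whose gene name in the scanner files starts with Hist1h, Hist2h, Hist3h or Hist4h. This gave 49 of the 30175 gene names on the array, with 55 of its 39429 probes. Of these, 48 probes of 43 genes passed the filters on signal and outlier spots and were tested, among 26317 tested probes in all. RNA came from mouse embryoid bodies, floating aggregates of differentiating embryonic stem cells, kept for 10 days without LIF, the cytokine that holds stem cells undifferentiated. Wild-type bodies were set against Dido3deltaCT+HADido3CT bodies, in which Dido3 lacks its C-terminal region and that missing region, encoded by exon 16, is overexpressed. The latter are called mutant+CT below. Dido3 is the longest protein of the gene Dido1. No group with the truncation alone or the added region alone was measured, so their effects cannot be told apart, and the labels do not say how many cell lines stood behind each condition.

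The 3 biological replicates of each condition were hybridised in pairs, 1 wild-type with 1 mutant+CT RNA, so each of 3 arrays gives 1 ratio. The wild-type dye was Cy5 for replicates 1 and 3 and Cy3 for replicate 2. Ratios below are log2 of mutant+CT over wild type on the normalized scale: 1 is a doubling, -1 a halving and 0 no difference. Between 68.1% and 78.5% of the spots of a sample were well above background, and 0 spots were saturated. Of 4 Dido1 probes, A_66_P128564 rose by a log2 ratio of 3.53 (limma, Benjamini-Hochberg adjusted p = 0.0435), while A_52_P226127 had -2.39 with an adjusted p of 0.115 in the same fit. Markers of several germ layers were detected, and no marker passed that test at adjusted p 0.05. Under other settings some did: 4 of 5 neural markers with Agilent's processed signals as well as under a trended and robust variance prior, 3 in the separate-channel fit, the visceral endoderm marker Apoa1 under the first and second of these, 1 or 2 parietal endoderm markers under all 3, and Hand2 without replicate 1. Over the whole array 739, 469 and 768 probes passed under these 3 settings in that order. Without replicate 1 the count was 125, and in the main fit it was 115. The 4 visceral endoderm markers were higher in mutant+CT on every array, with summed signals of 47540 to 154100 against 9926 to 48610 in wild type. The 4 parietal endoderm markers and 4 of 5 neural progenitor markers were lower on every array, with neural sums of 1244 to 2144 against 2359 to 35790. Of 6 naive pluripotency markers, 4 were higher on every array, with sums of 138000 to 475700 against 56040 to 89460 for the whole list. Klf4 had ratios of -1.36, -1.16 and 0.48, and Nanog was dim with a mean of 0.09. Dppa5a was the brightest of the list, with a mean log2 signal of 15.985, so the sums weigh it most. Of all tested probes, 20.4% were higher and 18.1% lower on every array. The 5 mesoderm and heart markers had median ratios of 3.79, -1.42 and -1.71 on replicates 1 to 3, with sums of 1021 to 42200 in mutant+CT against 3199 to 4150. The 5 tested of 6 germ cell markers, a list drawn up for male germ cells, had medians of -0.06, 0.29 and 3.14. Their sums were 2045 to 15390 against 1843 to 6517. They split on replicate 3, where Ddx4, Dazl and Sycp3 had 3.31, 3.89 and 3.14. Tnp1 and Prm2 had 0.09 and -0.18 there and were dim, with mean log2 signals of 6.887 and 6.481. Mutant+CT was thus far higher in mesoderm and heart markers on replicate 1 alone and in Ddx4, Dazl and Sycp3 on replicate 3 alone. The part of this in the differences between replicates was not tested. The part of this difference in cell makeup in the histone values was not tested, and fewer cells of a type cannot be told apart from less RNA per cell.

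Replication-dependent histone genes are transcribed as a cell copies its DNA, from clusters in which promoters of the 5 histone classes alternate. Core histones H2A, H2B, H3 and H4 form the particle that DNA wraps around, and linker histone H1 binds where DNA enters and leaves it. Their genes have no introns, and most of their mRNAs end in a short stem-loop in place of a poly(A) tail. The stem-loop binding protein SLBP holds this hairpin, U7 snRNP directs the cut a few bases behind it, and the mRNA is destroyed when replication ends. When this cut is missed, the transcript runs on to a later poly(A) signal, which happens in differentiating cells and for some genes routinely. The RNA here was amplified with a kit that starts from an oligo(dT) primer, so the arrays favour histone RNAs that carry a poly(A) tail.

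None of the 48 tested histone probes passed the test in limma (adjusted p under 0.05 over all 26317 tested probes), against 115 probes, or 0.437%, of the whole array (0.331% higher and 0.106% lower). A separate-channel fit of the same arrays also called 0 of them. At an unadjusted p under 0.05, 1 of 48 histone probes was higher and 3 were lower, where 9.45% and 7.07% of all tested probes were. Below 0 on every array were 12 of the 48, or 25%, beside 18.1% of all tested probes, and 2 were above 0 on every array, beside 20.4%. At least 2-fold lower on every array was 1 histone probe, Hist3h2ba, beside 0.984% of all tested probes, and at least 2-fold higher were 0, beside 2.04%.

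The medians of the histone classes differed in sign. The median ratio of all 48 probes was 0.17 on replicate 1, -0.33 on replicate 2 and -0.87 on replicate 3, while the median of all tested probes stayed between 0.00 and 0.01. Over the mean of the arrays the histone median was -0.29, with 31 of 48 probes below 0, where 50.6% of all tested probes were. H2A stood on the other side from the rest: its 12 probes had a median of 0.83, with 10 above 0. The other medians were -0.80 for the 4 H1 probes, -0.54 for the 11 H2B probes, -0.54 for the 8 H3 probes and -0.27 for the 13 H4 probes. With 1 array left out, the median ran from -0.54 to -0.08 for all histone probes, from -1.23 to -0.49 for H1, from 0.53 to 1.44 for H2A, from -0.77 to -0.33 for H2B, from -0.77 to -0.14 for H3 and from -0.55 to 0.09 for H4. The higher end was the value without replicate 3 in each case. The H2A median exceeded the H2B median on each array, by 1.40, 2.19 and 0.70 on replicates 1 to 3. On replicate 2 this rested on 5 near-identical H2A probes described below. The 7 other H2A probes had medians of 0.77, -0.62 and -0.08 on replicates 1 to 3, beside -0.15, -0.62 and -0.98 for H2B. These medians describe probes, which are not replicates and partly share sequence.

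**Figure D1:**
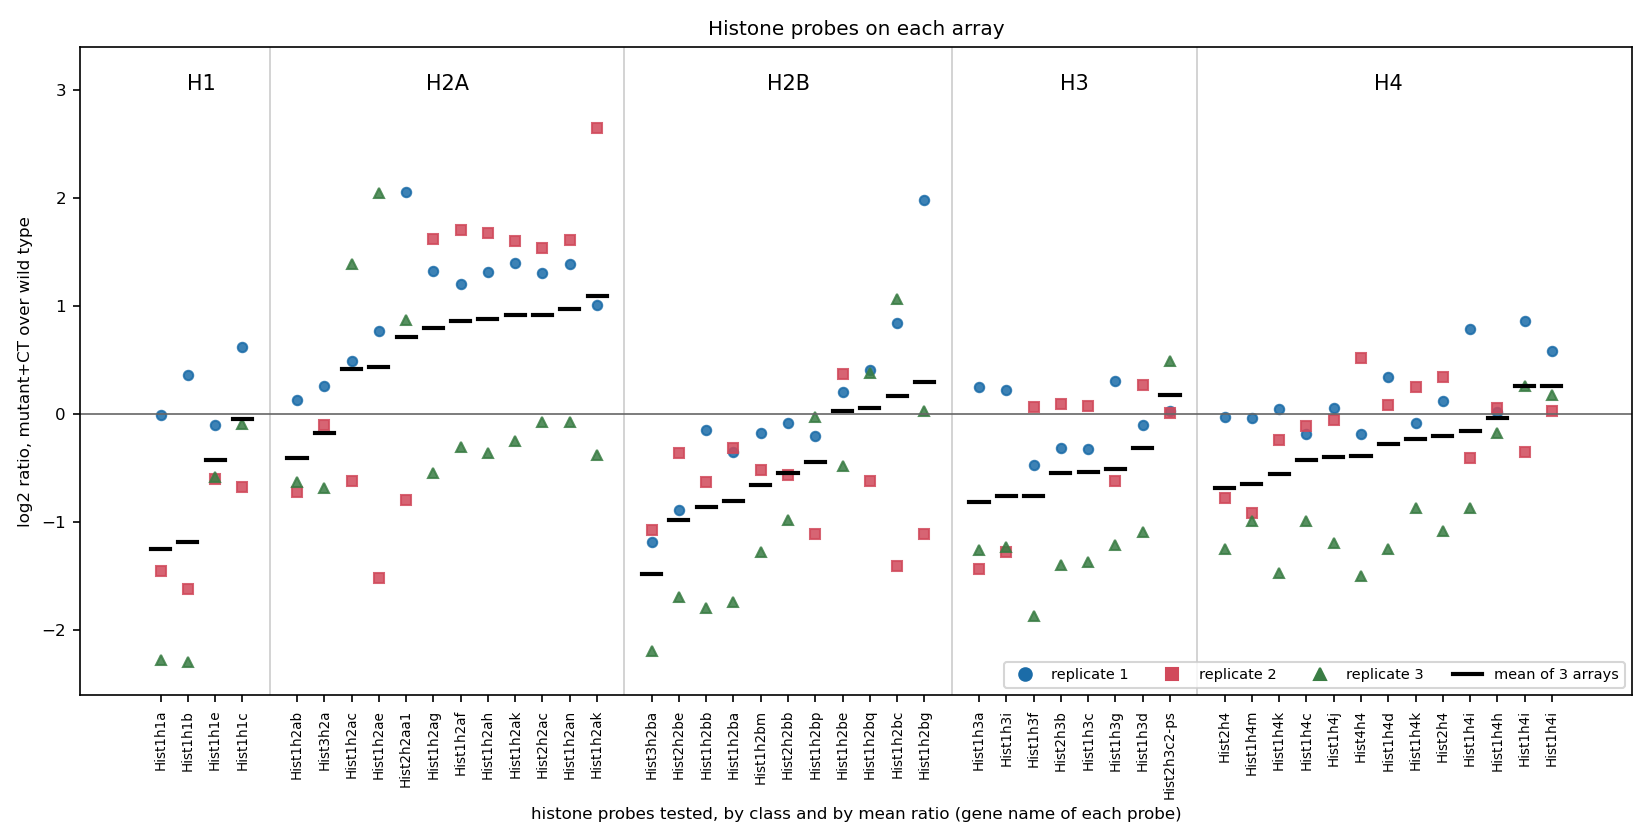
Log2 ratio of mutant+CT over wild type of the 48 tested histone probes (vertical axis), ordered within each class by mean ratio, with 1 symbol per array and a bar at the mean of 3 arrays. Most H2A probes lie above 0 on replicates 1 and 2 and near or below 0 on replicate 3, and H3 and H4 have medians of -1.24 and -0.99 on replicate 3.

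**Figure D2:**
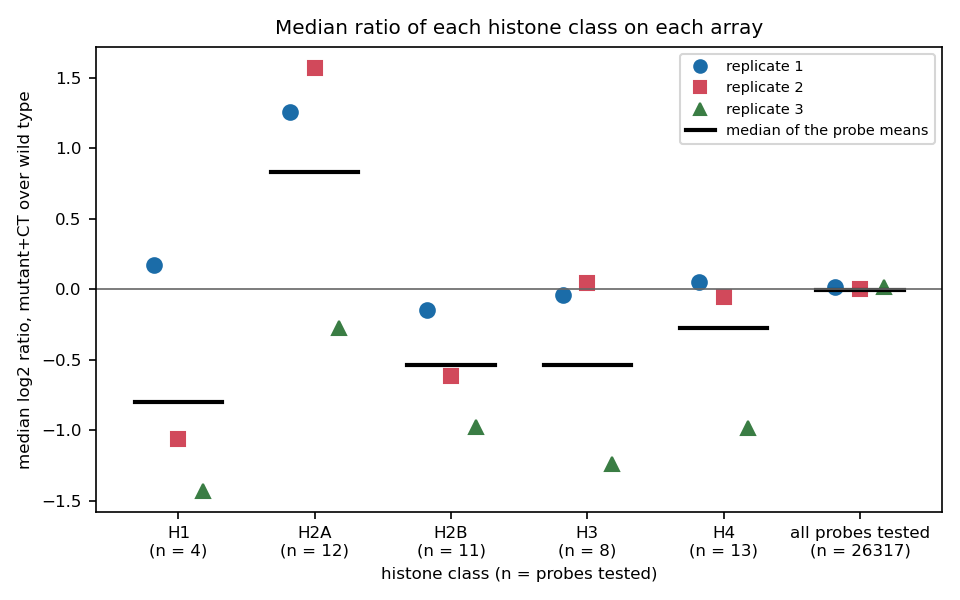
Median log2 ratio of each histone class on each array (symbols) and median of the probes' 3-array means (bars), with all 26317 tested probes at the right. H2A has medians of 1.26, 1.57 and -0.28 on replicates 1 to 3, and H1 has 0.18, -1.06 and -1.43.

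Among the tested probes linker histone H1 had the lowest class median, with a pair of its genes far below 0. With no filter on dim probes the H1 median was -0.24, above those of H3 (-0.54) and H2B (-0.49). Hist1h1a and Hist1h1b, linker histones of dividing cells, had a signal in wild type far above that in mutant+CT on replicates 2 and 3 and little difference on replicate 1. Hist1h1a had normalized signals of 148 in wild type and 147 in mutant+CT on replicate 1, 994 and 363 on replicate 2, and 1154 and 239 on replicate 3. Its ratios were -0.01, -1.45 and -2.27, a mean of -1.25 ± 1.15 (SD, n = 3) (limma, adjusted p = 0.267). Hist1h1b had signals of 146 and 187, then 838 and 273, then 995 and 204, in the same order. Its ratios were 0.36, -1.62 and -2.29, a mean of -1.18 ± 1.38 (SD, n = 3) (limma, adjusted p = 0.353). Across the 3 arrays the mutant+CT signals ran from 147 to 363 and from 187 to 273, and those of wild type from 148 to 1154 and from 146 to 995. Signals were not scaled between arrays, so these ranges are rough. Both genes were dim on replicate 1, where Hist3h2bb-ps, well above background on 0 arrays, had 78.6 in wild type and 78.9 in mutant+CT. Without replicate 1 the means of Hist1h1a and Hist1h1b were -1.86 and -1.95, and without replicate 3 they were -0.73 and -0.63. The adjusted p in limma was 0.101 and 0.0889 without replicate 1, and 0.80 and 0.943 without replicate 3. Counted without replicate 1, 5 histone probes were at least 2-fold lower on both remaining arrays, or 10.4%, against 2.39% of all tested probes: these 2, Hist1h3a, Hist1h3i and Hist3h2ba.

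Hist1h1c, a linker histone that many resting cells also make, did not share this pattern. Its ratios were 0.63, -0.67 and -0.09, around a mean of -0.05 ± 0.65 (SD, n = 3), with signals of 3433 to 11930 in wild type and 5302 to 7499 in mutant+CT. The mean without replicate 2 was 0.27. Hist1h1e was slightly below 0 on every array, at -0.10, -0.60 and -0.58. Hist1h1d and Hist1h1t, the latter the linker histone of the testis, were well above background on at most 2 of 3 arrays in either condition and were not tested.

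The promoters of 3 of these genes are shown because Hist1h1a and Hist1h1b had like ratios and Hist1h1c did not. They are the 130 bases immediately upstream of the start site, from RefSeq (GRCm38.p6), where the genes are named H1f1, H1f5 and H1f2. Hist1h1a lies at chr13:23763538-23763667 on the plus strand, Hist1h1b at chr13:21780626-21780755 on the minus strand and Hist1h1c at chr13:23738677-23738806 on the plus strand. Capitals mark the TATA box letters TATAAA, the CCAAT box letters CCAAT (or ATTGG, the same letters on the other strand) and the H1 box letters AAACACA.
Hist1h1a: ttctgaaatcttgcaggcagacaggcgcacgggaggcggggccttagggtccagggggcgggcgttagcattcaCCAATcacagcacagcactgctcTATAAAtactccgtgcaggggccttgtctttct
Hist1h1b: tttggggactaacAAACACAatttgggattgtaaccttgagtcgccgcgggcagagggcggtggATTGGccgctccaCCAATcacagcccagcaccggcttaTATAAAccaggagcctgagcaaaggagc
Hist1h1c: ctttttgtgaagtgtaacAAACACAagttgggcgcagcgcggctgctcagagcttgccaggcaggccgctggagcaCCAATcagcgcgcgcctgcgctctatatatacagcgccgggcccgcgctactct
All 3 hold a CCAAT box. The H1 box letters stand in Hist1h1b and Hist1h1c, and the exact TATAAA letters in Hist1h1a and Hist1h1b. Hist1h1c holds the similar letters tatatata near its start site, which the exact match does not mark. It is therefore not shown to lack a TATA box.

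H2A was the class with most ratios above 0, and many of its probes share one sequence. Probes of 6 H2A genes differ from another of the group by at most 6 mismatches over an overlap of at least 40 bases, and Hist2h2ac shares a run of 42 bases with the probe of Hist1h2ah. They are printed because RNAs of these genes cannot be told apart with them. Each is the 60-base probe of the array, with the longest run that it shares with the Hist1h2ah probe in capitals.
Hist1h2ah: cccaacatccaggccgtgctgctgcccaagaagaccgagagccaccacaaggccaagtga
Hist1h2af: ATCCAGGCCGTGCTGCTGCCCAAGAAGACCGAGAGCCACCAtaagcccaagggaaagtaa
Hist1h2ag: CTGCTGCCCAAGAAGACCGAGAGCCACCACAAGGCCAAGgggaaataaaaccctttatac
Hist1h2ak: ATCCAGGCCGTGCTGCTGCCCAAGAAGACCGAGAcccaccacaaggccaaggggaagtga
Hist1h2an: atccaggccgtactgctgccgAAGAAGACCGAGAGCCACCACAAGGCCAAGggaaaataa
Hist2h2aa2: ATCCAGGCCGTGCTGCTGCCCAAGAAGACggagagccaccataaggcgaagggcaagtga
Hist2h2ac: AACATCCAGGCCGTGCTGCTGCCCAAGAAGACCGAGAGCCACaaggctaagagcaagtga
Except for Hist1h2ag, each ends in the letters of a stop codon, so these probes read the last stretch of the H2A coding sequence. In the files' mm9 coordinates the Hist1h2ah probe lies at chr13:22127035-22127094 and the Hist1h2an probe at chr13:21878695-21878754, both on the minus strand, and the Hist2h2ac probe lies at chr3:96024378-96024437 on the minus strand.

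The near-identical H2A probes gave nearly the same 3 values. Hist1h2ah had normalized signals of 32610 in wild type and 81250 in mutant+CT on replicate 1, 17130 and 54890 on replicate 2, and 68090 and 53270 on replicate 3. Its ratios were 1.32, 1.68 and -0.35, a mean of 0.88 ± 1.08 (SD, n = 3) (limma, adjusted p = 0.398). Across the 5 tested probes of the group (Hist1h2af, Hist1h2ag, Hist1h2ah, Hist1h2ak and Hist1h2an) the ratios ran from 1.20 to 1.40 on replicate 1, from 1.60 to 1.70 on replicate 2 and from -0.54 to -0.07 on replicate 3. They were therefore more than 2-fold higher in mutant+CT on 2 arrays and not higher on the third. Hist2h2ac followed the same course, with 1.31, 1.54 and -0.08 (mean 0.92 ± 0.87, SD, n = 3; limma, adjusted p = 0.310). Hist1h2an was the H2A probe with the smallest p, with 1.39, 1.62 and -0.07 and an adjusted p of 0.30 in limma. The sixth near-identical probe, Hist2h2aa2, had a spot marked as an outlier on replicate 1 and was not tested, and its remaining ratios were 1.38 and -0.05.

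Hist1h2ak has a second probe, A_52_P498208, outside this group at chr13:21845637-21845696, and it had the highest mean of all histone probes. Its signals were 12440 in wild type and 25090 in mutant+CT on replicate 1, 4145 and 26100 on replicate 2, and 18670 and 14420 on replicate 3. The ratios were 1.01, 2.65 and -0.37, a mean of 1.10 ± 1.52 (SD, n = 3) (limma, adjusted p = 0.422). The signs match those of the first Hist1h2ak probe on each array. Counted without replicate 3, 7 histone probes were at least 2-fold higher on both remaining arrays, or 14.6%, against 2.64% of all tested probes. These 7 are the 5 near-identical H2A probes, Hist2h2ac and the second Hist1h2ak probe. The share thus mostly counts probes whose RNAs cannot be told apart, and it is no count of separate genes. Counted without replicate 1 or replicate 2, 0 were.

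The other H2A probes split from this group. Hist2h2aa1, of the Hist2 cluster, had ratios of 2.06, -0.79 and 0.87, and Hist1h2ae had 0.77, -1.51 and 2.05. Hist1h2ac had 0.50, -0.62 and 1.39. These 3 were higher in mutant+CT on replicates 1 and 3, which share a dye orientation, and lower on replicate 2, where the near-identical probes were highest. Hist1h2ab, with 0.13, -0.72 and -0.63, had the lowest H2A mean at -0.40 ± 0.47 (SD, n = 3) (limma, adjusted p = 0.531). Hist3h2a had 0.26, -0.10 and -0.68. Without the near-identical probes the H2A median over the mean of the arrays was 0.44 in place of 0.83. Hist1h2aa, an H2A gene of the testis, and Hist2h2ab were well above background on at most 2 arrays in either condition and were not tested.

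**Figure D3:**
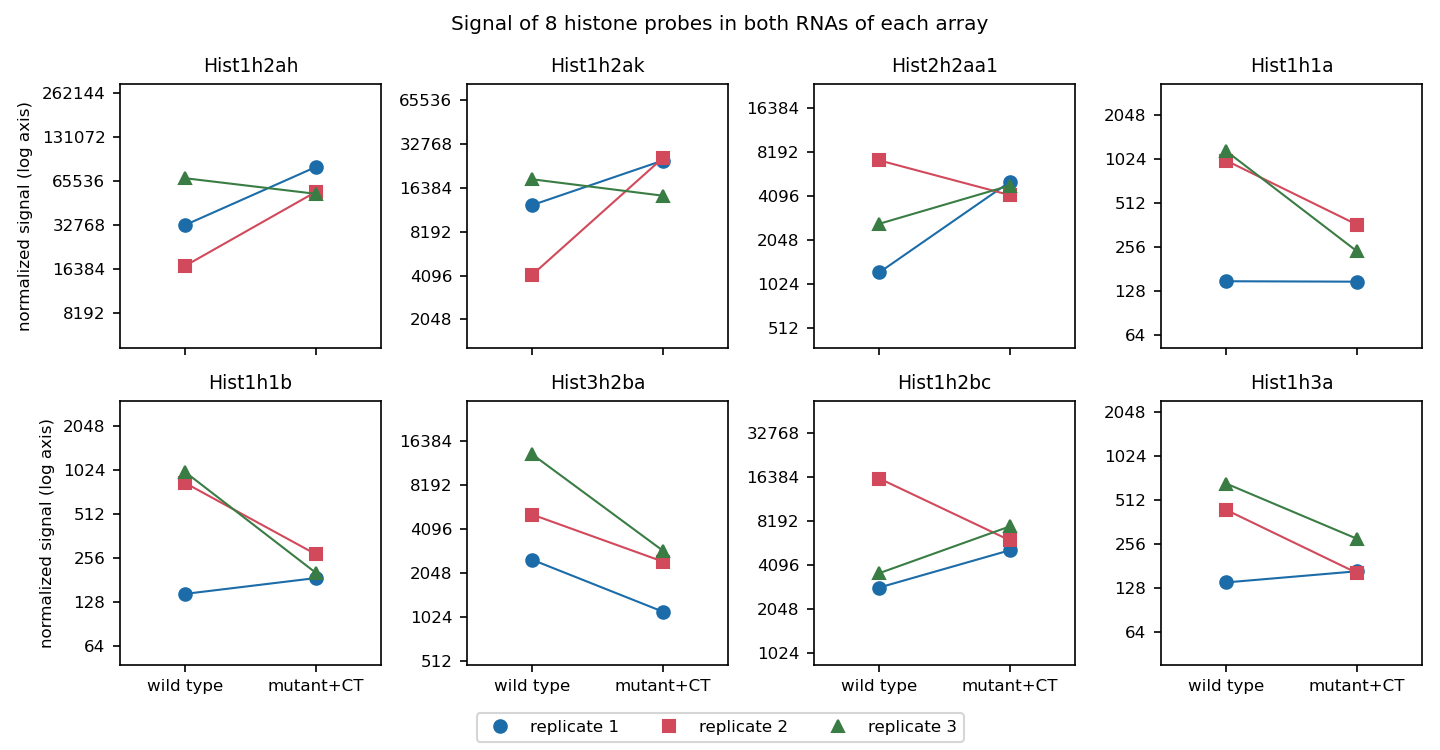
Normalized signal (vertical log axis) of 8 histone probes in wild-type and mutant+CT RNA, with a line joining both RNAs of 1 array; Hist1h2ak is shown by its probe A_52_P498208. Hist3h2ba is lower in mutant+CT on all 3 arrays, Hist1h1a and Hist1h1b differ on replicates 2 and 3, and Hist1h2ah is higher in mutant+CT on replicates 1 and 2.

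H2B, the partner of H2A in the nucleosome, held the histone probe with the smallest p. Hist3h2ba, an H2B gene of the Hist3 cluster (probe at chr11:58762964-58763023, plus strand), had signals of 2538 in wild type and 1121 in mutant+CT on replicate 1. They were 5176 and 2469 on replicate 2, and 13370 and 2934 on replicate 3. Mutant+CT was thus lower on every array, although its highest signal exceeds the lowest wild-type signal, which lies on another array and is not on the same scale. The ratios were -1.18, -1.07 and -2.19, a mean of -1.48 ± 0.62 (SD, n = 3), or 2.79-fold lower, which did not pass in limma (adjusted p = 0.112). The probe holds the letters of a poly(A) signal, AATAAA or ATTAAA, as do the tested probes of Hist1h2ag and Hist1h2be and 1 of Hist1h4i. In the Hist1h2ag probe these letters overlap the stop codon, so they are not shown to be a poly(A) signal there. The adjusted p of Hist3h2ba in limma was 0.0726 with a trended and robust variance prior and 0.0993 on the authors' deposited table, so no setting called it.

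Hist2h2be and Hist1h2bb were also below 0 on every array. Hist2h2be, known for its high level in olfactory neurons, had ratios of -0.89, -0.36 and -1.69 and a mean of -0.98 ± 0.67 (SD, n = 3) (limma, adjusted p = 0.225). On Agilent's processed signals its mean was -1.84 (limma, adjusted p = 0.0945). Hist1h2bb had -0.15, -0.63 and -1.80 and a mean of -0.86 ± 0.85 (SD, n = 3) (limma, adjusted p = 0.333). Hist1h2ba, the H2B gene of the testis, had -0.35, -0.31 and -1.74, with signals of 1940 to 9865 in wild type and 1524 to 5745 in mutant+CT. In all, 7 of 11 H2B probes were below 0 on every array, beside 18.1% of all tested probes. The others of the 7 were Hist1h2bm, Hist1h2bp and Hist2h2bb, and replicate 3 was the lowest on 6 of the 7.

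The remaining H2B probes changed sign from array to array. Hist1h2bc had signals of 2860 in wild type and 5146 in mutant+CT on replicate 1, 15950 and 6021 on replicate 2, and 3586 and 7493 on replicate 3. Its ratios of 0.85, -1.41 and 1.06 gave a mean of 0.17 ± 1.37 (SD, n = 3). Hist1h2bg had the highest H2B mean, 0.30 ± 1.56 (SD, n = 3), from 1.98, -1.11 and 0.03. Hist1h2bq had 0.41, -0.62 and 0.38. On these 3, as on Hist2h2aa1, Hist1h2ae and Hist1h2ac, the replicate with swapped dyes was the one below 0. Hist1h2be, with 0.20, 0.37 and -0.48, stayed near 0 on average at 0.03.

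H3 and H4, which form the core tetramer of the nucleosome, had class medians near 0 on replicates 1 and 2 (-0.04 and 0.04 for H3, 0.05 and -0.05 for H4) and low ones on replicate 3. Single probes departed from this, with Hist1h3a, Hist1h3g, Hist1h3i, Hist1h4m and 1 Hist2h4 probe between -1.43 and -0.62 on replicate 2 and the 3 Hist1h4i probes between 0.58 and 0.87 on replicate 1. On replicate 3, 7 of 8 H3 probes and 11 of 13 H4 probes were below 0, with medians of -1.24 and -0.99. Of all 26317 tested probes, 12963 were below 0 on that array. Hist1h3a had the lowest H3 mean: its signals were 139 in wild type and 166 in mutant+CT on replicate 1, 436 and 162 on replicate 2, and 660 and 277 on replicate 3. The ratios of 0.25, -1.43 and -1.25 gave a mean of -0.81 ± 0.92 (SD, n = 3) (limma, adjusted p = 0.381). Hist1h3i had nearly the same values, 0.22, -1.27 and -1.22, while Hist1h3f had -0.47, 0.07 and -1.86 (limma, adjusted p of 0.384 and 0.441). Hist1h3d had signals of 22320 and 20780, 35810 and 43110, and 55070 and 25800 in wild type and mutant+CT on replicates 1 to 3. Its ratios were -0.10, 0.27 and -1.09, and without replicate 3 its mean of -0.31 became 0.08. Hist1h3c (-0.32, 0.08 and -1.36) and Hist2h3b (-0.31, 0.09 and -1.40) ran alike. Hist2h3c2-ps, named as a pseudogene, was the H3 probe with the highest mean, at 0.18.

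Among H4 genes, Hist1h4m and one Hist2h4 probe had the smallest p. Hist1h4m had ratios of -0.03, -0.91 and -0.99 and a mean of -0.64 ± 0.53 (SD, n = 3) (limma, adjusted p = 0.344). Hist2h4 had -0.02, -0.78 and -1.25 at probe A_55_P1974967, the lowest H4 mean at -0.68 ± 0.62 (SD, n = 3) (limma, adjusted p = 0.349), and 0.12, 0.35 and -1.08 at probe A_55_P1973349. On Agilent's processed signals the first of these had a mean of -1.49. Hist1h4c had -0.18, -0.11 and -0.98. The near-identical probes of Hist1h4d, Hist1h4j and Hist1h4k, which cannot be told apart, ran from 0.05 to 0.34, from -0.23 to 0.09 and from -1.46 to -1.19 on replicates 1 to 3. Hist4h4, alone on chromosome 6, had -0.18, 0.52 and -1.50 at the probe that was tested.

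Probes of 1 gene lay less than 1 log2 unit apart in their means. Hist1h4i has 3 probes, with means of 0.26, -0.16 and 0.26. The third, A_55_P2174198, which holds the letters of a poly(A) signal, had 0.58, 0.03 and 0.18 and was 1 of the 2 histone probes above 0 on every array, the other being Hist2h3c2-ps. The means of probes of the same gene differed by 0.18 for Hist1h2ak, 0.32 for Hist1h4k, 0.42 for Hist1h4i and 0.48 for Hist2h4. Hist1h4h, measured well above background in 2 of 3 mutant+CT samples, had ratios of 0.02, 0.05 and -0.17. The second Hist4h4 probe and Hist3h2bb-ps, named as a pseudogene, were well above background on 0 arrays.

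Probes also differed in where they lie relative to the histone stem-loop, the hairpin behind the stop codon that marks the end of the mature mRNA. Of the tested probes, 6 end within 6 bases of it or inside it, and 2 start at it and run on for over 30 bases, into RNA that a correctly cut message lacks. The hairpin is shown from the complete cases, in capitals, with the bases beside it that the probe holds.
Hist1h3a: accaaaGGCTCTTTTCAGAGCCaca
Hist1h3g: tttaaaGGCTCTTCTTAGAGCCaccca
Hist1h3i: acaaaaGGCTCTTTTCAGAGCCccctc
Hist1h4m: actaaaGGCCCTTTTCAGGGCCatccaa
Hist2h2bb: ccaaaaGGCTCTTTTCAGAGCCacttta
Hist2h2aa1: taaaaaGGCTCTTTTCAGAGCCacccac
The first 5 probes stop 3 to 6 bases behind the hairpin. The Hist2h2aa1 probe holds 38 bases after it, and the Hist1h2ae probe begins within the hairpin and holds 48 bases after it.

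Probes that end at the stem-loop (these 5 and Hist1h2ab, which stops inside it) had medians of 0.18, -0.81 and -1.10 on replicates 1 to 3. All 6 were below 0 on replicates 2 and 3. The 2 probes that run past the stem-loop had the opposite signs on replicate 3, with Hist1h2ae at 2.05 and Hist2h2aa1 at 0.87. They were at 0.77 and 2.06 on replicate 1, but at -1.51 and -0.79 on replicate 2. Position was read only from stem-loop letters within a probe. Probes without these letters may lie before the hairpin or wholly past it, so the groups without them may mix positions. Among them are probes with the letters of a poly(A) signal, such as those of Hist3h2ba and A_55_P2174198 of Hist1h4i. The 17 H3 and H4 probes without stem-loop letters had medians of 0.02, 0.05 and -1.09. On replicate 2 they differed from the probes at the stem-loop, with 11 of 17 above 0 against 0 of 6. The 10 H2B probes without stem-loop letters did not share this: their medians were -0.16, -0.62 and -0.88, and 1 of 10 was above 0 on replicate 2. Within H3 alone, 5 of 5 probes without the stem-loop were above 0 on replicate 2 and 0 of 3 with it were. The 6 probes at the stem-loop were also dim, with mean log2 signals of 7.631 to 8.952. Of the H3 probes without it, Hist2h3b, Hist1h3f, Hist1h3c and Hist1h3d had 9.855 to 14.953 and Hist2h3c2-ps 8.105. The H4 probes without it ran from 6.862 to 11.739. The part of brightness in these differences was not tested. These probe groups were formed after the values were seen and are small, and no test was made of them.

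**Figure D4:**
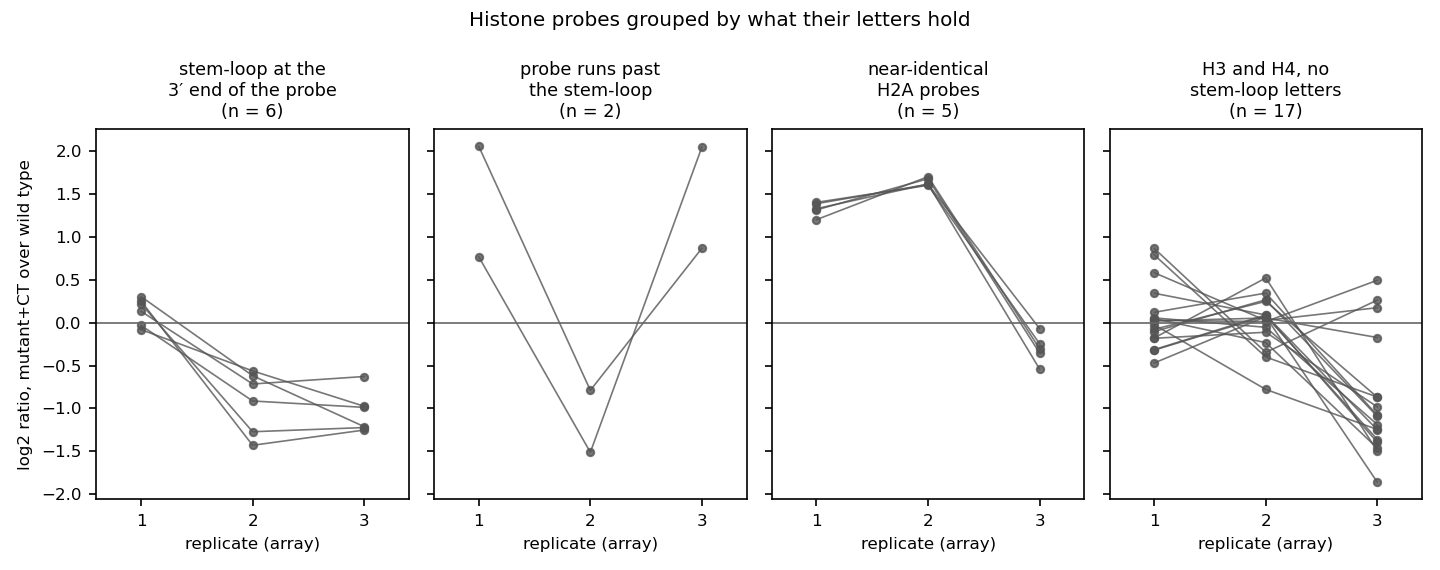
Log2 ratio of mutant+CT over wild type on each array for histone probes grouped by their letters, with a line joining the 3 values of 1 probe; the groups were formed after the values were seen. Probes ending at the stem-loop lie between -1.43 and -0.56 on replicate 2, near-identical H2A probes between 1.60 and 1.70.

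The Hist1 cluster on chromosome 13 spans 21814057 to 24026527 in mm9 and holds 36 of the 49 genes. Its 37 tested probes had a median of -0.27 over the mean of the arrays, with -0.20 for the 16 probes of its lower-coordinate part and -0.31 for the 21 probes of the other. The Hist2 cluster on chromosome 3 holds 9 genes, and its 8 tested probes had a median of -0.37. The Hist3 cluster on chromosome 11 had 2 tested probes, Hist3h2a and Hist3h2ba, at -0.17 and -1.48, and Hist4h4 had -0.39. H2A stood above the other classes in both larger clusters, at 0.87 in Hist1 (9 probes) and 0.82 in Hist2 (2 probes), where H2B was at -0.20 and -0.76. The H2A values are not independent between the clusters, because the Hist2h2ac probe shares a run of 42 bases with that of Hist1h2ah. The other Hist2 probe of H2A, Hist2h2aa1, ran differently, with 2.06, -0.79 and 0.87. The H2A and H2B genes of these clusters often lie head to head and share a promoter region.

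The arrays differed in which histone probes were high. Across the 48 probes the ratios of replicates 1 and 3 correlated at 0.61 (Pearson), replicates 1 and 2 at 0.35 and replicates 2 and 3 at 0.07, where all tested probes gave 0.56, 0.21 and 0.37. These describe probes that share arrays and sequence. Above 0 on replicates 1 and 2 and below 0 on replicate 3 were 11 histone probes, or 22.9%, and 5.61% of all tested probes. These 11 include the 5 near-identical H2A probes, Hist2h2ac and the second Hist1h2ak probe, so they are no count of separate genes. Above 0 on replicate 1 only were 10 histone probes, or 20.8%, and 8.91% of all. With a dye term in limma, 4 of 48 histone probes (8.33%, beside 11.4% of all tested probes) had an unadjusted p under 0.05 for the dye and 0 an adjusted one. The 4 were Hist1h2ae, Hist2h2aa1, Hist1h2bc and the second Hist1h2ak probe. Replicate 2 is alone in its orientation, so the dye and that replicate cannot be told apart.

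The genes that make, process and carry histones gave no call in limma at adjusted p 0.05. The lists below are represented by the brightest tested probe of each gene, and the share of all tested probes called was 0.437%. Of the factors that switch on histone genes, 10 of 12 were tested, with a median of 0.08, 0 called and 1 at an unadjusted p under 0.05. That was Ccne1, the cyclin that drives entry into S phase, with 0.74, 0.54 and 0.69 (mean 0.66 ± 0.10, SD, n = 3; limma, adjusted p = 0.225). The CCAAT-binding subunit Nfya had a mean of -0.38 and Casp8ap2, a partner of the histone gene activator NPAT, one of -0.36. Npat itself had no tested probe. Of 18 genes of histone mRNA 3′ processing and decay the median was -0.21, with 0 called and 1 lower at an unadjusted p under 0.05. Slbp, which binds the stem-loop, had -0.67, -0.08 and -1.04 (mean -0.60 ± 0.49, SD, n = 3; limma, adjusted p = 0.361). Lsm11, a protein of U7 snRNP, was above 0 on every array with a mean of 0.53, and Ctif, a translation factor that works with SLBP, was below 0 on every array with a mean of -0.79 (limma, adjusted p of 0.343 and 0.222).

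Histone chaperones, which carry new histones to DNA, had a median of -0.18 over 18 genes, with 0 called and 1 lower at an unadjusted p under 0.05. That was Anp32e, which removes the variant H2A.Z, with -0.85, -0.88 and -1.19 (mean -0.97 ± 0.19, SD, n = 3; limma, adjusted p = 0.131). Hat1, which acetylates new H4, had a mean of 0.63, and the chaperone subunit Rbbp4 one of -0.42.

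The replication-independent variants are made outside S phase as well, mostly from mRNAs with poly(A) tails. Of 13 genes 12 were tested, with a median of -0.29, 0 called, and 2 higher and 3 lower at an unadjusted p under 0.05. The linker variants H1fx (-1.39, -1.43 and -2.11) and H1f0 (-0.49, -1.01 and -2.68), the latter a linker histone of resting and differentiated cells, had means of -1.64 ± 0.41 and -1.40 ± 1.14 (SD, n = 3; limma, adjusted p of 0.0737 and 0.226). H1fx passed in limma on Agilent's processed signals, the 1 call in these 5 lists at adjusted p 0.05 under the settings run. That setting called 739 probes over the whole array. The oocyte linker histone H1foo had a mean of 0.67. H2afj, an H2A variant named here after its values were seen, had 1.19, 1.51 and 0.12, a mean of 0.94 ± 0.73 (SD, n = 3; limma, adjusted p = 0.253), while H2afz had -0.65 and H2afx -0.12.

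S phase genes are active in cells that copy their DNA. Of 22 genes 21 were tested, 17 of them below 0, with a median of -0.26 beside -0.29 for the histone probes. None was called in limma. At an unadjusted p under 0.05, 4 were lower and 0 higher, beside 7.07% and 9.45% of all tested probes. Below 0 on every array were 8 and above 0 on every array 0, beside 18.1% and 20.4%. The farthest from 0 was Tyms, which makes thymidylate, with -1.23, -0.95 and -1.62 (mean -1.27 ± 0.34, SD, n = 3; limma, adjusted p = 0.101). Tk1, thymidine kinase, had -0.38, -0.70 and -0.90, a mean of -0.66 ± 0.26 (SD, n = 3; limma, adjusted p = 0.249). The medians on replicates 1 to 3 were -0.26, -0.24 and -0.44.

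**Figure D5:**
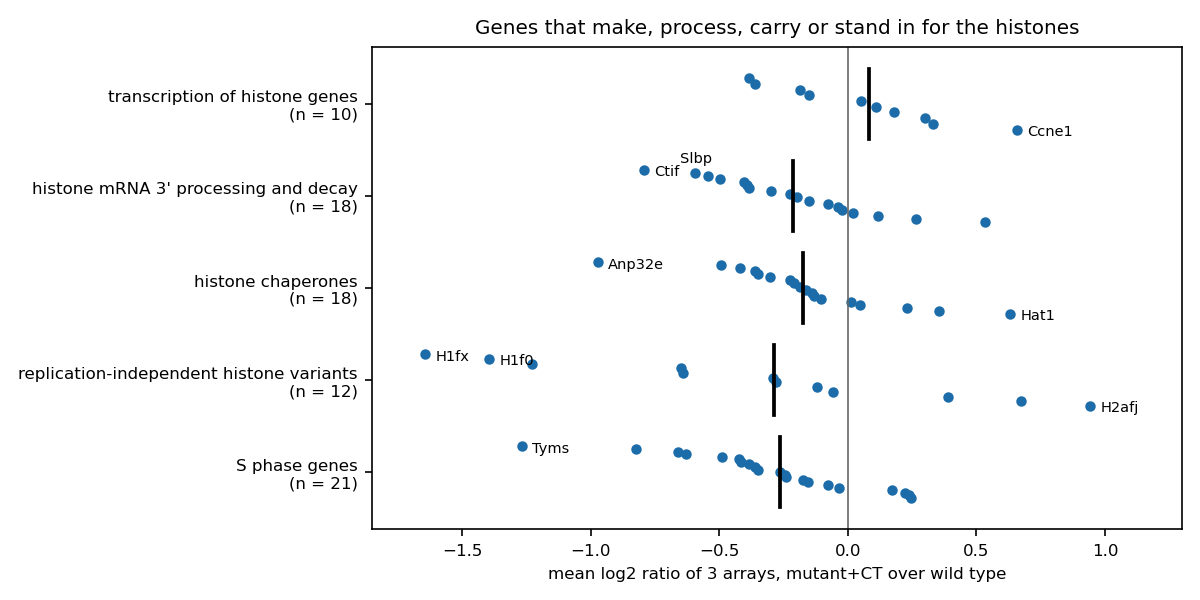
Mean log2 ratio of mutant+CT over wild type for single genes of 5 lists (points, 1 per tested gene, spread vertically for clarity) with the list's median as a bar. The list medians lie between -0.29 and 0.08, and the genes farthest from 0 are the linker variants H1fx and H1f0.

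The promoters of the histone genes hold the class-specific letters known for them. RefSeq promoters of 300 bases (GRCm38.p6; 250 before and 50 after the start) were found for 42 of the 49 genes. The letters CCAAT, on either strand, stood in 36 of 42 (85.7%), against 37.4% of all 32851 promoters, and by class in all but H4, where 2 of 8 held them. TATAAA stood in 61.9% against 13.6%. The octamer ATTTGCAT, the site of the activator OCT1 in H2B promoters, was found in 5 of 9 H2B and 7 of 14 H2A promoters and in 0 of the H1, H3 and H4 ones, against 1.74% of all. The H1 box letters AAACACA stood in 5 of 6 H1 promoters, Hist1h1a being the one without, in 2 of 14 H2A and 2 of 9 H2B promoters and in 0 of the H3 and H4 ones, against 7.18% of all. These motifs do not overlap in letters, and a match is no evidence of binding.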

How the data were processed

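RNA of 2 conditions was measured on 3 2-colour Agilent arrays. Agilent Feature Extraction 10.7.3.1 wrote the scanner files, per the file headers, and their deposited intensity values are each spot's mean, the median of its local background, and a processed signal. A log10 ratio of both dyes, made by the same software per the file headers, was not used. The log2 ratios of the deposited value table were made by the authors, and the submitters' processing notes name limma as the tool; the steps are not given in the sources used here. Its columns had medians of -0.02, 0.02 and -0.01, ran as mutant+CT over wild type and followed the ratios computed here with correlations of 0.996 to 0.999.

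Per the labels, 1 µg of RNA was amplified and 300 ng of cRNA per dye hybridised. In R 4.3.3 with limma 3.58.1, background was corrected with normexp (offset 50) and dyes with loess, control spots having weight 0. Spots marked as outliers (454, 234 and 507) were set to missing, and ratios were turned to mutant+CT over wild type. Normalized signals come from the same values. They were not scaled between arrays, so signals or sums of signals of different arrays compare only roughly. Probes well above background on all 3 arrays in either condition, and with no missing ratio, were tested. The test was made probe by probe, with limma against 0 and Benjamini-Hochberg adjustment over 26317 probes. Only this limma step was tried on simulated log2 ratios, and the steps before it were not. Gene names are those of the array design and positions are in mm9, without an mm9 annotation. The number of arrays limits the precision.

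Named are H1 members, the 3 smallest p and both extremes of each other class, members not well above background in 1 condition, members whose arrays differ in sign by over 1, genes whose probes lie over 1 apart (0 were found), and the 3 smallest p of each list, of which 1 is not reported here; a few others were named after their values were seen. Members and lists were chosen with earlier results of these data known. Alternatives were other background corrections, signals, centring, filters, the brightest probe of each gene, the deposited table, a dye term, another variance prior, a separate-channel fit, an adjusted p of 0.1, leaving out near-identical probes and leaving out each array.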

Additional observations from a re-analysis of the deposited data

How the results depend on the processing

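No histone probe passed the test in limma at adjusted p 0.05 under any of the alternatives run, nor at 0.1 with the settings of the report. Among the alternatives the smallest adjusted p of a histone probe was 0.0726 (Hist3h2ba, with a trended and robust variance prior). Over the whole array, 115 probes passed. This count became 16 without background subtraction, 739 on Agilent's processed signals, 40 with median centring, 469 with a trended and robust variance prior, 768 in the separate-channel fit and 673 at an adjusted p of 0.1. It was 0 with no filter on dim probes, with the brightest probe of each gene and with a dye term, and between 0 and 125 when 1 array was left out (0 without replicate 2 or 3). Histone probes at least 2-fold lower on every array were 0 with median centring and between 1 and 5 with 1 array left out (5 without replicate 1), and those at least 2-fold higher were between 0 and 7 (7 without replicate 3). Of the 41 probes chosen by the naming rule, 4 turned sign with a dye term: Hist1h2ae (-0.051), Hist1h2bc (-0.225), Hist1h2bg (-0.051) and Hist1h2bq (-0.110). With 1 array left out, 14 of these 41 turned sign. Without replicate 1 or replicate 3, Hist1h2bc (-0.279 to 0.955) and Hist1h2bq (-0.118 to 0.398) did. Without replicate 1, Hist1h2bg (-0.538 to 1.008) and Hist1h4i at A_51_P505521 (-0.041 to 0.565) did, and without replicate 2, Hist1h1c (-0.382 to 0.267). Without replicate 3, the sign turned for Hist1h2ac (-0.061 to 0.943), Hist1h2ae (-0.372 to 1.41), Hist1h3d (-0.599 to 0.082), Hist1h4d (-0.581 to 0.217), Hist1h4i at A_55_P2158697 (-0.634 to 0.196), Hist1h4j (-0.622 to 0.001), Hist1h4k at A_55_P2091145 (-0.474 to 0.086), Hist2h4 at A_55_P1973349 (-0.480 to 0.233) and Hist4h4 (-0.839 to 0.172). The ranges are over the 3 fits with 1 array left out. The cause was not tested. The rest of the 41 kept their sign under all alternatives run. Of the 7 other tested probes, Hist1h2be turned without replicate 1 (-0.052) and without replicate 2 (-0.137), Hist3h2a without replicate 3 (0.079), and Hist1h4h without replicate 3 (0.037) and on the authors' deposited table (0.007). The class medians kept theirs except H4 (0.09 without replicate 3). The test of 3 within-array ratios is itself paired by replicate. No paired analysis was possible beyond it because each replicate number holds 1 ratio.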
